A study of Arabidopsis thaliana with 12 samples.

Results

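The genes described here are 120 of the 33601 loci with counts in Arabidopsis seedlings, and they share 1 pattern. Their transcripts were lower in the dark-grown pifq mutant than in dark-grown WT, were higher again in pifq when the medium held lincomycin, and did not reach the same limit in WT, where lincomycin left the mean higher for 79 of them and lower for 41. They were chosen by their measured values in these 12 libraries. The rule asked for a mean normalised count of at least 100 in WT dark, a pifq dark mean of at most 0.5 times that of WT dark, a pifq dark linc mean of at least 1.5 times that of pifq dark, and a WT dark linc mean below 1.5 times that of WT dark. A normalised count is the number of reads on a locus divided by the library's size factor, the median ratio to the geometric mean over 16228 loci with at least 10 counts in every library. The first 2 limits alone held for 736 loci. Of these, 120 passed the lincomycin limits, 613 had a ratio below the limit in pifq, and 3 reached it in both genotypes. The levels and ratios of the 120 members in the 4 groups are therefore a description, with no test.

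The seedlings were whole, 3 days old and grown in darkness after a light pulse that starts germination, in the Columbia background. The groups are WT dark and pifq dark, without lincomycin, and WT dark linc and pifq dark linc, on medium with 0.5 mM lincomycin, each with 3 libraries from biological replicates. The pifq mutant carries mutations in the bHLH factors PIF1, PIF3, PIF4 and PIF5 in every cell and from germination on, and its seedlings partly look light-grown in the dark, so that a transcript can be low in it because the seedling has other proportions of tissues. In whole seedlings, fewer cells of a type and less RNA per cell cannot be told apart.

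The PIFs bind G-box (CACGTG) and PBE-box (CACATG) elements and maintain the growth of etiolated seedlings, with a closed hook, folded cotyledons and a long hypocotyl, until phytochrome removes them in the light. Genes that need the PIFs for their dark level are called PIF-induced, and many of them encode growth-related proteins of the cell wall and hormone pathways. Lincomycin blocks translation in plastids, and the damaged plastid sends retrograde signals that alter transcription in the nucleus. The comparison asks which PIF-induced transcripts regained part of their dark level in the mutant when plastid translation was blocked.

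Library totals were between 11495950 and 17612505 counts. PIF1 had between 207.9 and 234 normalised counts in the WT dark libraries and between 6.29 and 8.98 in pifq dark, and PIF3 had between 1367 and 1607 and between 16.8 and 26.4. PIF5 was also low in pifq dark, with between 3.37 and 7.54 against 66.9 to 80.5. Reads on the 3′ end of PIF4 were not lower, with between 142.6 and 236 normalised counts in pifq dark against 109.5 to 128 in WT dark, so its reads do not check the label. Scaling matters for the membership, as the lincomycin ratio in pifq had a median of 1.00 over the 11360 loci with at least 100 in WT dark on the size factors used, and 1.247 on library totals. On library totals 554 loci passed the rule, among them all 120 members, and with TMM effective sizes 115 passed, all of them members.

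Together the members held between 3.03 and 3.402% of all counts in the WT dark libraries, between 3.46 and 3.56% in WT dark linc, and in pifq between 0.441 and 0.489% without and between 1.14 and 1.23% with lincomycin. The lipid transfer protein gene LTP2 alone made up between 1.95 and 2.32% in WT dark and between 0.645 and 0.701% in pifq dark linc. The 4 ranges of the members together do not overlap, and the pifq dark linc libraries lay between the other pifq libraries and WT. Without LTP2 the shares overlapped in WT, with 1.08 to 1.11% in WT dark and 1.10 to 1.12% in WT dark linc. In pifq they did not, with 0.206 to 0.230% without and 0.488 to 0.526% with lincomycin. By gene, the members had a median of 471 normalised counts in WT dark (between 100.6 and 277317) and 488 in WT dark linc, and of 100.8 and 198 in pifq without and with lincomycin. The median member was 3.72-fold lower in pifq dark than in WT dark and 1.75-fold higher in pifq with lincomycin than without it, and its ratio of WT dark linc to WT dark was 1.07. The plot of the members in each library shows the same order of the pifq medians in every replicate.

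**Figure D1:**
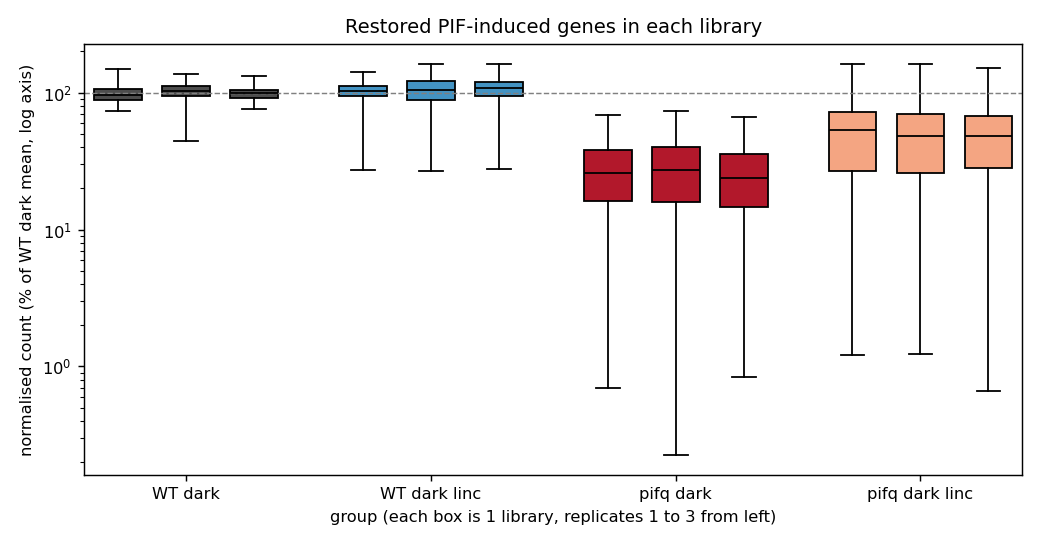
Normalised counts of 119 members in each of the 12 libraries, as a percentage of the gene's WT dark mean on a log axis (1 box per library with the quartiles and median, whiskers to the lowest and highest value above 0, bbx23 left out for its 0 counts in pifq dark). The medians of the 3 pifq dark linc libraries lie above those of pifq dark and below those of WT dark, while the boxes of the pifq groups overlap, and the median members stand at 26.9% of WT dark without and 49.8% with lincomycin in pifq.

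Of the 120 members, 102 had all 3 pifq dark linc libraries above all 3 pifq dark libraries, which held for 18.1% of the 11360 loci with at least 100 in WT dark. For 96 members all pifq dark linc libraries lay below all WT dark libraries (31.0% of those loci), so that 24 members overlapped or passed the WT dark range. In WT, the range with lincomycin overlapped that without it for 91 members (77.3% of those loci), and 3 members had a WT dark linc mean of at most 0.5 times that of WT dark. After genes with fewer than 2 libraries at 5 CPM (counts scaled to equal library totals) were set aside, the quasi-likelihood test of edgeR at a Benjamini-Hochberg adjusted p of 0.05 called all 120 members lower in pifq dark than in WT dark, where 20.0% of all 13456 genes tested were called lower. For lincomycin in pifq it called 88 of the 98 members tested higher and none lower, against 9.68% of 13142 genes called higher. A block for the replicate number raised this to all 98, against 20.0% of all genes. The number was taken to pair these libraries from their correlation, as the labels do not say what it shares. With the block 2633 of the 13142 genes were called higher and 2863 lower, so block calls in the lists below stand beside these shares. Without the block 1272 were called higher and 1778 lower, and list calls without it stand beside these. Calls of members in the lists follow from the rule that chose them. The other 22 members were below the filter in the comparison of lincomycin in pifq. In WT, 2 members were called higher with lincomycin (3.17% of all genes tested) and 4 lower (2.91%), and the 2 became 21 without WT dark replicate 2, 1 without WT dark replicate 3 or WT dark linc replicate 1, and 0 without WT dark replicate 1, WT dark linc replicate 2 or WT dark linc replicate 3. The 4 became 12 without WT dark replicate 2, 2 without WT dark linc replicate 3 and 8 without the filter. Calls over all genes moved as well. Without WT dark replicate 2, 1315 of all 13398 genes were called higher and 1388 lower. Without WT dark linc replicate 3, 157 of 13391 were called higher and 232 lower, and without the filter 829 of 23751 were called lower. Against WT dark, 95 members remained called lower in pifq dark linc (24.3% of all genes) and 2 were called higher, and against WT dark linc 102 of 118 were called lower (18.5%). The difference between the lincomycin responses of the genotypes was called higher in pifq for 54 members (1.23% of all genes). Without pifq dark linc replicate 1 it was called for 33 (101 of all 13989 genes). All of these comparisons share libraries with the rule, so nothing is read from the counts.

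The size of the return varied widely. As a share of the difference between WT dark and pifq dark that was regained in pifq dark linc, here called reversion, the median member reached 29.5%. It was below 25% for 51 members, between 25 and 50% for 41, between 50 and 75% for 15, between 75 and 100% for 7, and 100% or more for 6. The lincomycin ratio in pifq was at least 2 for 37 members and at least 3 for 10. Both counts include bbx23, whose ratio has no finite value because it had 0 reads in pifq dark. In 20 members the pifq dark mean was at most 0.1 of WT dark. Of these, 12 had a lincomycin ratio of at least 2, bbx23 counted among them, and all 20 had a reversion below 25%. Those plotted lie at the lower left in the plot of the level in pifq without and with lincomycin.

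**Figure D2:**
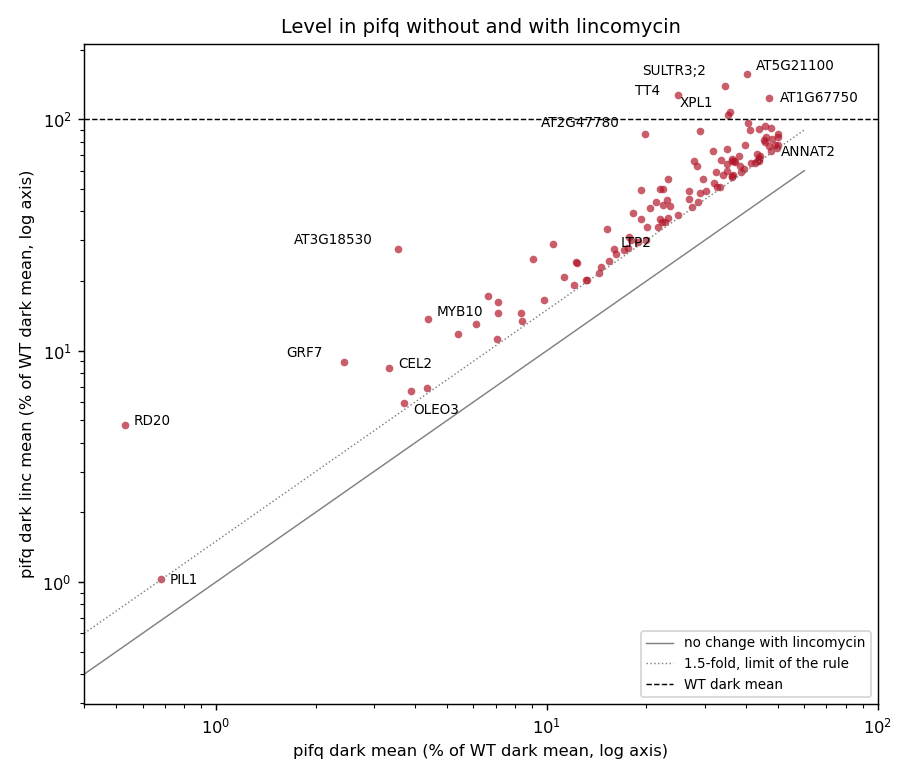
Mean in pifq dark linc against mean in pifq dark for 119 members, each as a percentage of the gene's WT dark mean on log axes, with lines for no change, for the 1.5-fold limit and for the WT dark mean (1 point per gene, bbx23 left out). Most points lie near the 1.5-fold limit. The 37 members at a ratio of 2 or more include bbx23, which is not plotted, and 6 members pass the WT dark line, among them AT5G21100, SULTR3;2, TT4 and XPL1.

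Close to the limits, small differences decided membership. The berberine-bridge family gene AT1G26380 had a lincomycin ratio of 1.501 and is a member, whereas the annexin gene ANNAT1, at 1.493 with means of 449 and 670.2, is none. The detoxification carrier DTX35 was just inside the limit for pifq, with means of 2393 in WT dark and 1196 in pifq dark, and AT1G03743 just outside it, with 1146 and 577. Failing only 1 of the limits kept 608 loci out at the lincomycin ratio in pifq, 428 at the WT dark mean, 313 at the ratio of pifq to WT, and 3 at the lincomycin ratio in WT. The smallest WT dark mean inside was that of the RNA-binding protein gene ARP1, at 100.6, with the lumazine synthase family gene AT2G30230 next at 103.6. AT3G29410 lay just outside, at 99.1.

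Because the rule used all 3 replicates, it was applied again to 2 replicate numbers at a time and the lincomycin ratio in pifq was read in the number left out. Without replicate 1 it chose 130 genes (98 of them members), whose median ratio of 1.73 in the replicates used was 1.69 in replicate 1. Without replicate 2 it chose 165 (103 of them members), with 1.77 and 1.44, and without replicate 3 it chose 112 (88 of them members), with 1.77 and 1.70. Of the chosen genes with a ratio in the left-out replicate, 96.9, 93.9 and 92.0% were above 1 there, where 50.6, 49.3 and 50.8% of all genes with at least 100 in WT dark were. A ratio of at least 1.5 was found for 66.7, 45.5 and 67.0% of them, against 6.67, 4.65 and 9.67% of all genes. In each unused replicate most ratios were above 1, and the share that kept the limit was smallest in replicate 2. These shares describe the genes chosen each time, which are not the members alone. The 736 PIF-induced loci, members included, had a median ratio of 1.13 over all 3 replicates. Their shares in a left-out replicate were not read, so the shares of all genes are no matched background. Size factors came from all libraries, so the left-out replicate was not wholly apart from the choice.

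**Figure D3:**
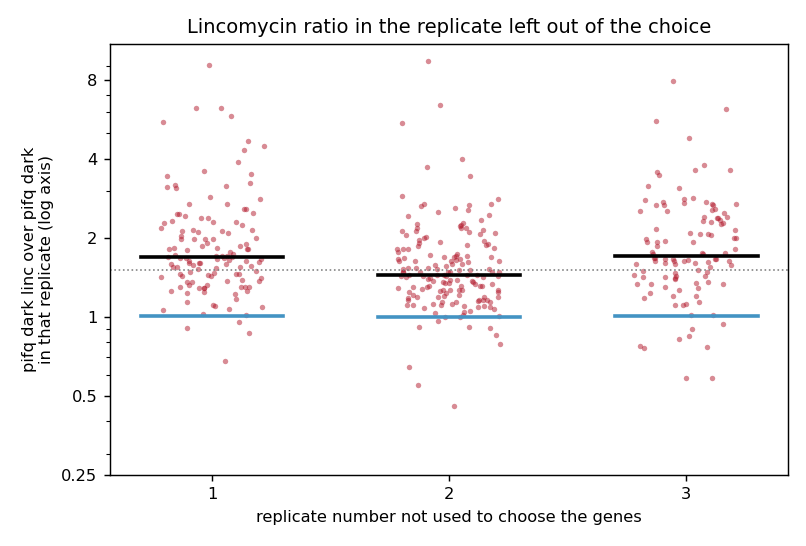
Ratio of pifq dark linc to pifq dark, on a log axis, in the replicate number that was not used to choose the genes (1 point per chosen gene, black bar for their median, blue bar for the median of all genes with at least 100 in WT dark, dotted line at 1.5). The medians of the chosen genes are 1.69, 1.44 and 1.70, and those of all genes are close to 1.

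The 613 other PIF-induced genes, which stayed below the lincomycin limit in pifq, had a median of 362 normalised counts in WT dark and were a median 2.59-fold lower in pifq dark. Their median lincomycin ratio was 1.08 in pifq and 0.902 in WT. The means in WT dark linc were above those in WT dark for 24.5% of them and for 65.8% of the members. A WT dark mean at least 10-fold that of pifq dark was found for 18 of the 613 (2.94%) and for 20 of the 120 members (16.7%). The sets were cut on the lincomycin response and share all their libraries, so these differences were not tested.

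The most abundant member encodes a protein that carries lipids. LTP2, a secreted protein of the epidermis that binds lipids, had normalised counts of 269334, 266063 and 296555 in WT dark and 297324, 329366 and 314308 in WT dark linc, and of 44098, 44924 and 37862 in pifq without and 101484, 94946 and 81696 with lincomycin. The pifq dark linc libraries all lay above pifq dark and far below WT, at 33.4% of the WT dark mean, and the WT dark linc libraries all lay just above WT dark. AT4G12510, of the lipid-transfer and seed-storage albumin superfamily, had means of 9598 ± 715 (SD, n = 3 libraries, as in all values of this form) in WT dark, 2048 ± 384 without and 4228 ± 867 with lincomycin in pifq. AT4G22490, of the same superfamily, went from 2873 ± 413 to 301 ± 53.6 and 834 ± 9.7, a 2.77-fold ratio in pifq. Over the 10 members for lipid transfer, lipid droplets and fatty acids, the median ratio was 2.13 and the median reversion 26.6%, and in all 10 every pifq dark linc library exceeded every pifq dark library.

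Proteins of the lipid droplet, which coat the stored oil that feeds a dark-grown seedling, differed sharply in how far they returned. AT2G47780, of the rubber elongation factor family found on lipid droplets, had normalised counts of 3734, 4859 and 4750.2 in WT dark and 5111, 5328 and 6391 in WT dark linc, and of 766, 946 and 935 in pifq without and 4457, 3761 and 3342 with lincomycin. It was 5.04-fold lower in pifq dark and 4.37-fold higher with lincomycin, and the pifq dark linc libraries overlapped those of WT dark. The oleosin gene OLEO3, for a structural protein of oil bodies, had normalised counts of 1590.0, 1518 and 1802 in WT dark and 1534, 1881 and 2066 in WT dark linc, and of 59.8, 60.6 and 61.6 in pifq without and 98.5, 95.7 and 98.1 with lincomycin. It was 27-fold lower in pifq dark and 1.61-fold higher with lincomycin, to 5.95% of WT dark, with no overlap of any pifq library with WT or between the pifq groups. The caleosin gene RD20, for a calcium-binding peroxygenase of the lipid droplet, gave 170, 173 and 184 reads in WT dark. In pifq it gave 0, 1 and 1 reads without lincomycin and 4, 7 and 9 with it, so that the ranges lie apart. Its 9.15-fold ratio of summed counts in pifq, the largest of the members with a read in pifq dark, rests on 2 against 20 reads, with a 95% exact interval of 2.22 to 80.8 that covers counting error only. Against WT dark it was 185-fold lower in pifq dark (interval 51.0 to 1532). Of the 12 lipid droplet genes listed, 6 were tested for lincomycin in pifq. Their median log2 difference was 0.37 (0.15 over the 4 that are no members) beside 0.00 for all genes. Of the 6, 3 were called higher (9.68% of all genes) and none lower, and the block added 1 lower call among the genes that are no members. The called gene that is no member, AT1G67360 of the same family as AT2G47780, had normalised counts of 439.6, 457 and 441 in WT dark and 497, 547 and 533 in WT dark linc, and of 307, 269 and 293 in pifq without and 477, 445 and 325 with lincomycin. Its log2 difference with lincomycin in pifq was 0.50 ± 0.15 (SE, edgeR adjusted p = 0.0272), and the call was lost without any 1 of 4 libraries (pifq dark replicate 1 or 2 and pifq dark linc replicate 1 or 2), with adjusted p up to 0.1235. Transcripts of 8 seed storage proteins, which mark remaining embryo material, summed to between 937 and 2019 normalised counts in WT dark, and in pifq to between 273 and 551 without lincomycin and between 145.1 and 369 with it. At a median log2 difference of −0.92, neither of the 2 genes tested was called by edgeR, 1 was lower at an unadjusted p under 0.05 and with DESeq2, and both were called lower with the block (2863 of all 13142 genes). The pifq ranges of the sum over the 8 genes overlapped, and the part of remaining embryo material in the members' levels was not tested.

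The 250 bases before the annotated start of AT2G47780, OLEO3 and RD20 in the RefSeq TAIR10.1 assembly are shown to give the places of their PIF elements. Only members with a G-box or PBE-box in this window could be printed, so a PIF element in each follows from that choice. They are written 5′ to 3′ on the strand of the gene, with each G-box (CACGTG) or PBE-box (CACATG on either strand) in capitals. TT4 and AT5G21100, restored past the WT mean, follow for comparison, and only genes with a match were printed. AT2G47780 is at chr2:19569790-19570039 on the plus strand, OLEO3 at chr5:20819818-20820067 on the plus strand, RD20 at chr2:14146556-14146805 on the minus strand, TT4 at chr5:4488226-4488475 on the plus strand and AT5G21100 at chr5:7167856-7168105 on the plus strand.
AT2G47780: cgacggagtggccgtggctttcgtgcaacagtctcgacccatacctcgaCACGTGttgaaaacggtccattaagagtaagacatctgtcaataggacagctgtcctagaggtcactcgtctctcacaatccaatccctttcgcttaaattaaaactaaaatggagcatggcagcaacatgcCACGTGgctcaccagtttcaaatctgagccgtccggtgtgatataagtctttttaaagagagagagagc
OLEO3: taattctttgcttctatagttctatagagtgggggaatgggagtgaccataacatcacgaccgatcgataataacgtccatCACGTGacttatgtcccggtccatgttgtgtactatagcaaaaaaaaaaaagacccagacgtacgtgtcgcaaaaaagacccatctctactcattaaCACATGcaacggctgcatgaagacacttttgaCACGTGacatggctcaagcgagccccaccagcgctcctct
RD20: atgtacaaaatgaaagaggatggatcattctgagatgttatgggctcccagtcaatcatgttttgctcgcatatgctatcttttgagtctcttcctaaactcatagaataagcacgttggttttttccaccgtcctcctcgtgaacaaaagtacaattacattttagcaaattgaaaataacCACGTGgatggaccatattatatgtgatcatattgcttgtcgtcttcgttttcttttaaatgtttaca
TT4: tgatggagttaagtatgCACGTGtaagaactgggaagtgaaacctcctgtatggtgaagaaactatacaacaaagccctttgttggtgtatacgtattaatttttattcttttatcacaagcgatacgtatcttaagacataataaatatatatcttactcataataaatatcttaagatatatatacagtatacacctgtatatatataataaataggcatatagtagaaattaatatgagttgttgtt
AT5G21100: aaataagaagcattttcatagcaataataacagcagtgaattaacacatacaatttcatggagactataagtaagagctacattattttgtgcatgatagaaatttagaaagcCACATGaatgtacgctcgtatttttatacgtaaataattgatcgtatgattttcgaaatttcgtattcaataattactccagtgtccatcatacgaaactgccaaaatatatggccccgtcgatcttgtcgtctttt

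The G-boxes of AT2G47780 began 201 and 69 bases before the start, those of OLEO3 169 and 40 bases with a PBE-box at 72, and that of RD20 at 68. TT4 had 1 G-box at 233, and AT5G21100 had 1 PBE-box at 137 and no G-box in this window. Within 250 bases, a G-box was found in 8 of 114 coding members (7.02%), in 7.24% of the 594 coding genes among the other PIF-induced genes, and in 6.49% of all 27443 coding genes. A PBE-box was found in 23 members (20.2%), in 16.2% of the other PIF-induced genes and in 11.1% of all coding genes. Within 500 bases, the shares for the G-box were 9.65, 11.6 and 9.35%, and those for the PBE-box 37.7, 26.3 and 21.1%. The GLK site CCAATC on either strand was found within 500 bases in 18.4% of members, 17.7% of the other PIF-induced genes and 19.7% of all coding genes. These are matches of letters in a window, and binding was not measured here.

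The members for phosphocholine synthesis and the methyl cycle that feeds it had means near those of WT dark in pifq with lincomycin. XPL1, a phosphoethanolamine N-methyltransferase that makes phosphocholine for membrane lipids, had normalised counts of 538, 658 and 619.8 in WT dark and 640.4, 762 and 796 in WT dark linc, and of 198, 209.9 and 244 in pifq without and 689, 606 and 652 with lincomycin. The pifq dark linc libraries overlapped WT dark and exceeded every pifq dark library, with a ratio of 2.99 and a mean at 107% of WT dark. AT3G17998, a locus with no entry in the gene table, had nearly the same reads as XPL1 in each library (739 and 732 in WT dark replicate 1, 174 and 172 in pifq dark replicate 1). How reads were divided between these 2 members is therefore uncertain, and they may not be separate. Both count among the 120 members and among the 6 with a reversion of 100% or more. The methionine synthase gene MS2, whose enzyme regenerates methionine for the methyl donor S-adenosylmethionine, had normalised counts of 448, 555 and 451 in WT dark and 471, 580.0 and 579.9 in WT dark linc, and of 223, 203 and 172 in pifq without and 499, 425 and 387 with lincomycin. Its pifq dark linc libraries overlapped WT dark and lay above pifq dark, a 2.19-fold ratio. Of 12 genes listed for this pathway 10 were tested, with a median log2 difference of 0.22 (0.08 over the 8 that are no members). With lincomycin in pifq, 4 were called higher (9.68% of all genes) and none lower, and 2 of the 4 were members. With the block, 3 of the 8 others were called higher (20.0% of all genes) and 2 lower (2863 of all 13142 genes). Against WT dark, 8 that are no members were tested. In pifq dark 2 of them were called higher and 2 lower (2831 and 2686 of all 13456 genes). In pifq dark linc 4 were called higher and 1 lower than in WT dark (3295 and 3354 of all 13791 genes), so these genes do not share the members' pattern as a set. SAHH2, an adenosylhomocysteinase that removes the product of methylation, had 773 ± 179.9 without and 1483 ± 345 with lincomycin in pifq, a log2 difference of 0.92 ± 0.18 (SE, edgeR adjusted p = 0.00287). MAT3, which makes S-adenosylmethionine, had 2834 ± 124 in WT dark, 1479 ± 129.8 without and 2237 ± 272 with lincomycin in pifq, with a log2 difference in pifq of 0.58 ± 0.13 (SE, edgeR adjusted p = 0.00505). Both calls held under every alternative run.

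Sulfur uptake and use were represented by SULTR3;1 and SULTR3;2, of a family of sulfate carriers in the chloroplast envelope, and by OASA2. SULTR3;2 had normalised counts of 191, 235 and 218 in WT dark and 266, 220.3 and 235 in WT dark linc, and of 44.9, 88.7 and 89.3 in pifq without and 248, 328 and 324 with lincomycin. All 3 pifq dark linc libraries lay above all WT dark libraries, at 139.8% of the WT dark mean, after a 2.89-fold lower level in pifq dark. SULTR3;1 was also higher without overlap, from 27 ± 2.58 to 73.4 ± 4.67, but stayed far below its WT dark level of 296 ± 28.3. OASA2, annotated as an isoform of the enzyme that makes cysteine, had 92.9 ± 40.4 without and 140.4 ± 28.8 with lincomycin in pifq, and these libraries overlapped. Of 12 sulfate transporter genes 6 were tested for lincomycin in pifq, with a median log2 difference of −0.03 (−0.23 over the 4 that are no members). Only the 2 members, chosen for this rise, were called higher (9.68% of all genes), and none was called lower. Of the other 4, 1 was lower at an unadjusted p under 0.05, none was called by DESeq2, and 2 were called lower with the block (2863 of all 13142 genes).

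Cell wall and extracellular proteins formed the biggest group with a named role, with 23 members against 33 of other or unknown role, a median lincomycin ratio of 1.72 and a median reversion of 36.1%. The arabinogalactan peptides are short glycoproteins of the cell surface, and AGP22 had normalised counts of 21272, 17937 and 15733 in WT dark and 18773, 13952 and 17977 in WT dark linc, and of 3106, 2757 and 2167 in pifq without and 4476, 4136 and 3976 with lincomycin. Its pifq dark linc libraries lay above pifq dark and below WT dark without overlap, a 1.57-fold ratio. AGP14 came nearer to WT, with 1536 ± 72.1, 753 ± 62 and 1193 ± 176 in WT dark and in pifq without and with lincomycin, and AGP13 had 1517 ± 194, 353 ± 75.5 and 568 ± 172 with overlapping pifq libraries. Of 11 arabinogalactan peptide genes 10 were tested, at a median log2 difference of 0.31 (0.29 over the 7 that are no members). Only the 3 members were called higher (9.68% of all genes), and none was called lower. Of the other 7, 1 was called higher by DESeq2 and 3 with the block (20.0% of all genes). Family 9 glycosyl hydrolases, which cut cellulose or related glucans, showed both deep and mild loss. CEL2, a cellulase, had normalised counts of 712, 1025 and 782 in WT dark and 933, 1037 and 903 in WT dark linc, and of 20.7, 38.2 and 25.1 in pifq without and 65.7, 58.7 and 87.1 with lincomycin. It was 30-fold lower in pifq dark and regained 5.23% of the difference, whereas GH9C2 had 1369.9 ± 124, 478 ± 98 and 816 ± 71.5 and regained 37.9%. GH9B13 lay between, with 645 ± 13.3, 114 ± 15.8 and 199.7 ± 23.9. Of 11 genes of the family 6 were tested, at a median log2 difference of 0.10 (0.08 over the 4 that are no members). In all, 2 were called higher (9.68% of all genes) and none lower, both of them members. None of the other 4 was called with the block. These list members were part of the choice, so their calls are no evidence of their own.

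In the same group, the means of 2 genes for enzymes that act on the wall passed that of WT dark. AT5G21100, an L-ascorbate oxidase of the wall space, had normalised counts of 102, 147 and 94.8 in WT dark and 130.4, 161 and 168 in WT dark linc, and of 41.4, 61.7 and 35.2 in pifq without and 185, 186 and 169 with lincomycin. All pifq dark linc libraries lay above all WT dark libraries, at 157% of the mean, the highest reversion of all members at 195%. The pectate lyase gene AT1G67750, whose product cuts pectin, had normalised counts of 680.0, 913 and 704 in WT dark and 917, 1239.9 and 1128 in WT dark linc, and of 390.0, 394 and 293 in pifq without and 1096, 955 and 779 with lincomycin. Its WT dark linc mean was 1.43 times that of WT dark, the member closest to the WT limit, with all WT dark linc libraries above WT dark, and its pifq dark linc libraries overlapped WT dark. TBL41, of a family that acetylates wall polysaccharides, was second closest at a WT ratio of 1.41 and had 64.6 ± 10.2 without and 139.5 ± 11.1 with lincomycin in pifq. SCPL9, a serine carboxypeptidase-like protein, had normalised counts of 240.4, 293 and 307 in WT dark and 293, 330.0 and 321 in WT dark linc, and of 93.2, 79.7 and 70.4 in pifq without and 222, 273 and 256 with lincomycin. Its pifq dark linc libraries overlapped WT dark, a 3.09-fold ratio. PRP2, a proline-rich wall protein and the second most abundant member, had 21584 ± 1342, 5360.0 ± 936 and 8353 ± 816, and the peroxidase gene RCI3 had 2977 ± 954, 1170.3 ± 429 and 1822 ± 535 in WT dark and in pifq without and with lincomycin. The pifq groups of RCI3 overlapped, and those of PRP2 did not.

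**Figure D4:**
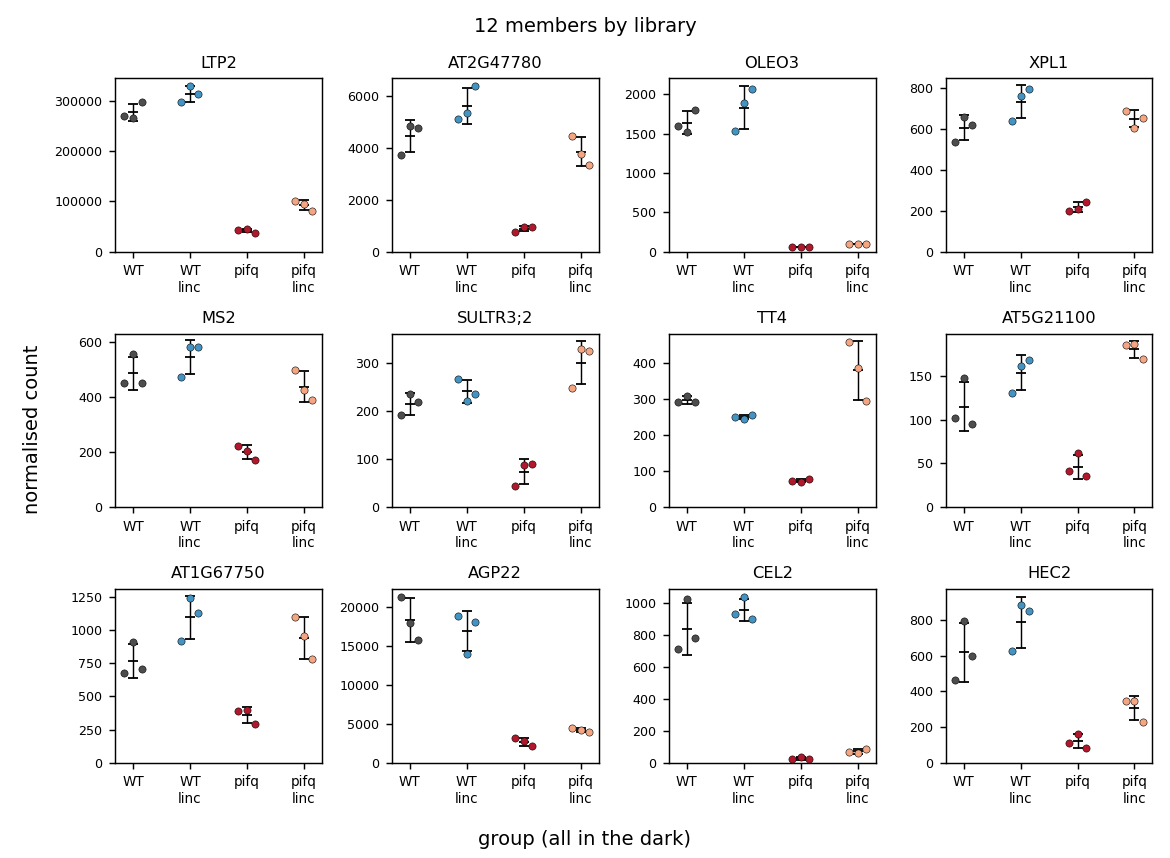
Normalised counts of 12 members in the 12 libraries (1 point per library, dash and bar for the mean ± SD of 3 libraries, linear axes from 0). In AT2G47780, XPL1, MS2, TT4 and AT1G67750 the pifq libraries with lincomycin overlap WT dark, in SULTR3;2 and AT5G21100 they all lie above it, and in LTP2, OLEO3, AGP22, CEL2 and HEC2 they all lie below.

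Specialised metabolism counted 17 members with a median ratio of 1.69 and a median reversion of 19.4%. Chalcone synthase, encoded by TT4, makes the first flavonoid skeleton and had normalised counts of 292, 309 and 291 in WT dark and 249, 246 and 256 in WT dark linc, and of 73.6, 70.7 and 77.9 in pifq without and 457, 386 and 294 with lincomycin. It was 4.01-fold lower in pifq dark and 5.12-fold higher with lincomycin, to 128% of WT dark with overlap of 1 pifq dark linc library with the WT dark range, while in WT all libraries with lincomycin lay below those without it. Of 7 early flavonoid genes 3 were tested for lincomycin in pifq, with a median log2 difference of 1.34 (0.83 over the 2 that are no members). Of the 3, 2 were called higher (9.68% of all genes) and none lower. Both that are no members were called higher with the block (20.0% of all genes). One of these was the flavonol synthase gene FLS1, with normalised counts of 35.3, 63.1 and 27.2 in WT dark and 33.1, 36.9 and 46.8 in WT dark linc, and of 33.4, 34.8 and 37.7 in pifq without and 112, 87.5 and 72.8 with lincomycin. Its log2 difference in pifq was 1.34 ± 0.22 (SE, edgeR adjusted p = 0.00081), a call that held under every alternative run. The listed flavonoid genes that are no members were not lower in pifq. In pifq dark against WT dark 1 of them was tested and called higher, at a log2 difference of 1.68 (2831 of all 13456 genes). In pifq dark linc against WT dark both tested were called higher, at a median of 1.59 (3295 of all 13791 genes). CYP79B2, which converts tryptophan on the way to indole glucosinolates and auxin, regained 87.8% of its difference, with 161 ± 32.8, 73.5 ± 8.51 and 150.0 ± 15.1, and the pifq dark linc libraries overlapped WT dark. UGT74B1, a glucosyltransferase of glucosinolate synthesis, had 470.2 ± 16.1, 235 ± 37.6 and 406 ± 26.7. THAS1, the synthase of the root triterpene thalianol, and CYP705A5, a P450 of the same pathway, are neighbouring members. THAS1 had 62.3 ± 11.7 without and 95.4 ± 23 with lincomycin in pifq with overlap, and CYP705A5 had 862 ± 61 and 1354 ± 163 without. Of 8 genes of the thalianol and marneral clusters 6 were tested, at a median log2 difference of 0.51 (0.43 over the 4 that are no members). Of the 6, 2 were called higher (9.68% of all genes) and none lower. With the block 3 of the 4 that are no members were called higher (20.0% of all genes). Among these, AT5G47980 of the thalianol cluster had normalised counts of 73.5, 75.1 and 77.9 in WT dark and 93, 90.2 and 117 in WT dark linc, and of 56.4, 66.2 and 33.9 in pifq without and 101, 128 and 106 with lincomycin, and its log2 difference of 1.07 ± 0.23 (SE, edgeR adjusted p = 0.00502) held under every alternative run. AT1G26380, at the limit, had normalised counts of 232, 91.4 and 145 in WT dark and 42.8, 42 and 43 in WT dark linc, and of 21.9, 20.2 and 25.1 in pifq without and 29.5, 20.6 and 50.7 with lincomycin. Its WT libraries with lincomycin all lay below those without it, the lowest WT ratio of all members at 0.273, and its pifq groups overlapped.

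The 9 transcription regulators were among the deepest losses. Without bbx23, which had no reads in pifq dark, they had a median 11.9-fold lower level in pifq dark and a median lincomycin ratio of 2.28. Over all 9 the median reversion was 9.74%, and none regained 50% of its difference. PIL1, a bHLH factor of shade responses, had normalised counts of 1007, 1012 and 979 in WT dark and 1017, 1220.4 and 862 in WT dark linc, and of 6.9, 2.24 and 11.3 in pifq without and 12, 12.4 and 6.61 with lincomycin. It was 147-fold lower in pifq dark, and its ratio in pifq rests on 17 against 29 reads, with a 95% exact interval of 0.830 to 3.03 for the ratio of summed counts. The B-box gene bbx23, for a zinc finger protein, had 0 reads in every pifq dark library and 0, 1 and 1 in pifq dark linc, against 242, 165 and 334 in WT dark. It was at least 56.9-fold lower in pifq dark, taking 3 counts per library as the floor, and no fold is given between the pifq groups since both lie at or under that floor. GRF7, a growth-regulating factor, had normalised counts of 667, 751 and 681 in WT dark and 691, 729 and 713 in WT dark linc, and of 12.7, 24.7 and 13.8 in pifq without and 59.1, 50.4 and 77.2 with lincomycin. It was 3.65-fold higher with lincomycin in pifq with no overlap and reached 8.89% of WT dark. MYB10, a MYB factor, was 3.14-fold higher, from 27.5 ± 6.99 to 86.3 ± 2.63, against 631 ± 73.2 in WT dark. HEC2, a bHLH factor that can bind PIFs in Arabidopsis, had normalised counts of 464, 793 and 597 in WT dark and 624, 885 and 853 in WT dark linc, and of 112, 162 and 84.2 in pifq without and 346, 344 and 229 with lincomycin. Its pifq dark linc libraries lay above pifq dark and below WT dark. PRE5, a small bHLH protein without DNA binding that promotes cell elongation, had 342 ± 10.9, 76 ± 6.96 and 123 ± 29.6 in WT dark and in pifq without and with lincomycin. Of 9 PRE and HEC genes 5 were tested, at a median log2 difference of 0.55 (0.35 over the 3 that are no members). Of the 5, 3 were called higher (9.68% of all genes) and none lower. The block added 1 more among those that are no members (20.0% of all genes called higher). HEC1, no member, had 229 ± 35.4 without and 340.1 ± 61.7 with lincomycin in pifq, a log2 difference of 0.55 ± 0.17 (SE, edgeR adjusted p = 0.0306), and the call was lost without any 1 of 3 libraries (pifq dark replicate 1 and pifq dark linc replicate 1 or 2), with adjusted p up to 0.130.

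Among hook and ethylene genes, HLS1, which is needed for the apical hook, had normalised counts of 126, 221 and 167 in WT dark and 184, 188 and 279 in WT dark linc, and of 81.7, 66.2 and 39 in pifq without and 119, 85.4 and 86 with lincomycin. All pifq dark linc libraries lay above all pifq dark libraries and below all WT dark libraries. ACS5, an ACC synthase that makes the ethylene precursor, had 112 ± 26.5 in WT dark, 9.35 ± 2.86 without and 16.3 ± 5.88 with lincomycin in pifq, and the pifq groups overlapped. Only 1 of 9 genes listed here, HLS1, passed the filter in this comparison, and it was called with the block and not without it.

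Among the remaining named members, ANNAT2, a calcium-dependent membrane-binding annexin, was abundant and came close to WT, with normalised counts of 13647, 15322 and 13254 in WT dark and 13434, 15752 and 15329.5 in WT dark linc, and of 6792, 6737 and 5638 in pifq without and 13372, 11708 and 9226 with lincomycin. Its highest pifq dark linc library overlapped WT dark. The β-tubulin gene TUB1, of the microtubules, had 3127 ± 356, 603 ± 57.8 and 1154 ± 291, and AT4G11610, a C2-domain protein annotated as binding calcium and lipid, had 2779 ± 696, 198 ± 6.22 and 405 ± 81.5 in WT dark and in pifq without and with lincomycin. AT3G18530, of the ARM repeat superfamily, had normalised counts of 262, 420.1 and 293 in WT dark and 342, 388 and 334 in WT dark linc, and of 8.05, 8.98 and 17.6 in pifq without and 73.3, 84.4 and 109 with lincomycin. It was 7.71-fold higher with lincomycin in pifq without overlap, and the overlapping gene AT3G18535 on the same strand had means of 146 without and 177 with lincomycin in pifq. AT2G12462, with a sterile alpha motif domain, had 1245 ± 48.4, 505 ± 76.6 and 1205 ± 78.3 and regained 94.5%. All 5 snoRNA loci among the members had a lower mean in WT dark linc than in WT dark, with ratios between 0.575 and 0.858, and lincomycin ratios in pifq between 1.53 and 2.07. In all 5 the WT dark replicate 2 library stood apart, at between 34.5 and 43.7% of the mean of the other WT dark libraries, and WT dark linc overlapped WT dark. Without that library the WT ratios were between 0.450 and 0.697, with no overlap. In 3 of the 5 every pifq dark linc library lay above every pifq dark library. Of these loci, AT5G13225 overlaps AT5G02055 on the same strand. In all, 8 members overlap another gene on their strand, and 6 share at least 90% of at least 100 bases with another gene in their last 500 bases, so how reads were divided there is uncertain (AT3G18530, AT5G21100, DTX35, SCPL9, AT1G26380 and AT4G39361 are among them).

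Marker genes of tissues were read in the same libraries because several members are known from roots. The 16 root cell markers summed to between 17880 and 21415 normalised counts in WT dark, between 19218 and 21022 in WT dark linc, and in pifq between 7730 and 10775 without and between 9356 and 12099 with lincomycin. The pifq groups overlapped, all pifq libraries lay below all WT libraries, and the sum was higher with lincomycin in each of the 3 same-numbered pairs of pifq libraries. Of the root markers 8 were tested with lincomycin in pifq, at a median log2 difference of 0.12. None was called by edgeR or DESeq2, 2 were higher at an unadjusted p under 0.05, and with the block 3 were called higher (20.0% of all genes) and none lower. PLT2, a root meristem gene, was near 0 in all groups, with means between 1.59 and 2.85, and PLT1 and WOX5 had means between 5.22 and 10.7. The 6 shoot epidermis markers, LTP2 not among them, summed to between 34976 and 39776 in WT dark and between 32252 and 33345 in WT dark linc, wholly below WT dark, and in pifq between 28975 and 36713 without and between 30634 and 40218 with lincomycin, with a median log2 difference of 0.05 and a higher sum with lincomycin in each of the 3 pairs. None of the 6 was called by edgeR or DESeq2, 1 was higher at an unadjusted p under 0.05, and with the block 2 were called higher (PDF1 and PDF2, beside 20.0% of all genes) and none lower. For the difference between the genotypes' responses, PDF1 alone of the 6 was called, and higher in pifq. On library totals, as CPM, neither sum overlapped between the pifq groups, with 480 to 606 without and 719 to 836 with lincomycin for the root markers and 1798 to 2066 and 2417 to 2778 for the epidermis markers. The members' summed normalised counts were between 71105 and 84812 in pifq without and between 144699 and 177619 with lincomycin, without overlap on either scale. LTP2 alone gave between 37862 and 44924 of these counts without and between 81696 and 101484 with lincomycin. The part of these tissues in the members' levels was not tested.

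**Figure D5:**
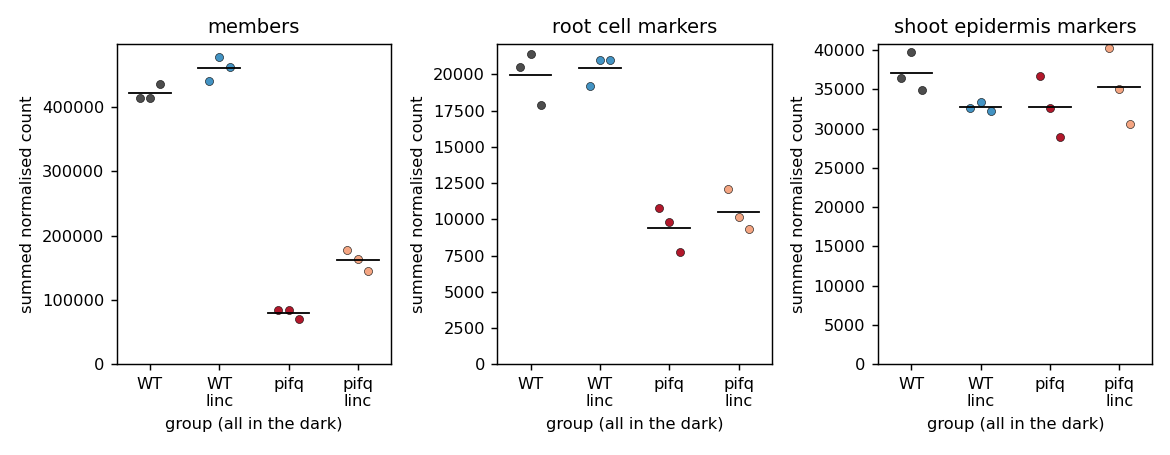
Summed normalised counts of the 120 members, of 16 root cell markers and of 6 shoot epidermis markers (1 point per library, bar for the mean of 3 libraries, linear axes from 0). The members' sum is 144699 to 177619 in pifq dark linc against 71105 to 84812 in pifq dark without overlap, and on this scale the pifq ranges of both marker sums overlap. LTP2 alone gives 81696 to 101484 of the members' sum in pifq dark linc and 37862 to 44924 in pifq dark.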

How the data were processed

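Whole etiolated seedlings gave 12 polyA-selected, strand-specific 3′-end libraries. Per the labels and the study's methods, the authors aligned reads to TAIR10 with Bowtie 0.12.7, counted those on the coding strand of the last 500 bp of each transcript, and deposited raw counts per locus in 1 column per library, where how technical duplicate runs were combined is not given in the sources used here. Loci were matched to the RefSeq gene table by locus name (32835 of 33601). The members, gene lists and tests were chosen with earlier results of these data known. Promoters were read from TAIR10.1, and similar 3′ ends were sought with blastn 2.17.0.

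Size factors, group means and the rule were computed with Python 3.11.15, pandas 2.3.3 and numpy 2.4.6. Group differences were tested with edgeR 4.0.16 in R 4.3.3 (quasi-likelihood test, TMM, Benjamini-Hochberg adjustment over all genes tested, adjusted p of at most 0.05), on the 2 groups compared, or all 4 groups for the interaction, after a filter of 5 CPM in at least 2 libraries. The tests were tried on simulated data. Alternatives were DESeq2 1.42.0, RLE size factors, library totals, no filter, a replicate block, each library left out, and other limits of the rule. Fold intervals of low counts are exact and cover counting error only, and a total between 11495950 and 17612505 counts per library sets the depth.

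The labels give the groups the same replicate numbers 1 to 3. Deviations from the group means correlated between same-numbered pifq dark and pifq dark linc libraries (r = 0.404, 0.353 and 0.519 across genes), so these numbers were taken as pairing the libraries. In each of the other comparisons at least 1 pair had a correlation below 0, and their numbers were not taken as pairs. Named genes are the 10 members highest in WT dark, the 10 with the largest lincomycin ratio in pifq, the 8 with the highest reversion, the 5 lowest in pifq relative to WT, the 2 loci nearest each limit on each side, members of the lists or overlapping another member, and other listed genes called with lincomycin in pifq. The snoRNA loci and marker genes were chosen as groups, and AT3G18535 as an overlapping gene, after values were seen.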

Additional observations from a re-analysis of the deposited data

Results flagged for a closer look

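Among the listed genes that are no members, 4 differed between the genotypes in their lincomycin response by the interaction term of edgeR's quasi-likelihood test. The members' own differences follow from the rule that chose them, and genes outside the lists were not searched. For MAT3, an S-adenosylmethionine synthetase gene, the log2 response to lincomycin in pifq exceeded that in WT by 0.75 (adjusted p = 0.00725), and the call held in 17 of 17 alternatives. For the flavonol synthase gene FLS1 the difference was 1.38 (adjusted p = 0.0485), and the call was lost in 10 of 17 alternatives, each of which left out 1 library, with adjusted p up to 0.129. For the epidermis marker PDF1 it was 0.66 (adjusted p = 0.0202), lost in 7 of 17 alternatives with adjusted p up to 0.0663. For the mutated PIF1, annotated as PIL5, it was −3.22 (adjusted p = 0.00922) and held in 17 of 17 alternatives, but rests on 7, 8 and 5 reads in pifq without lincomycin and 0, 0 and 2 with it.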

How the results depend on the processing

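DESeq2 and RLE size factors kept all 12 counts of calls within 1.5 times. Library totals, which move the median log2 difference of all genes by −0.372 for pifq against WT and by 0.325 for lincomycin in pifq, gave 554 members of the rule, 6283 genes lower in pifq dark, 5248 higher with lincomycin in pifq, and 1544 for the interaction, 102 of them members. A laxer lincomycin limit gave 255 members and a limit of 2 gave 37, with bbx23 counted in both. Without the filter on low counts, 870 genes were called higher with lincomycin in WT, 4 of them members.

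With the replicate block, 2633 genes were called higher with lincomycin in pifq, where the numbers were taken to pair the libraries. Where the libraries share only a number, the block gave 1020 genes higher with lincomycin in WT, 15 of them members, and 264 for the interaction. Leaving out 1 library at a time gave between 110 and 171 members of the rule, between 157 and 1315 genes and between 0 and 21 members higher with lincomycin in WT, between 669 and 1275 genes higher with lincomycin in pifq, and between 101 and 214 genes and between 33 and 56 members for the interaction. The cause of these differences was not tested. Of the lincomycin ratios of named members, 37 moved by more than 1 SD on library totals and none reversed. Depth limits the 5 members with at most 10 counts in every pifq dark library, and 22 members were not tested there.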
